A study of Mus musculus with 10 samples.

Results

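The genes described here are 8 members of the insulin-like growth factor (IGF) pathway at and around the cell membrane: the ligand genes Igf1 and Igf2, the receptor genes Igf1r, Insr and Igf2r, the substrate genes Irs1 and Irs2, and the adaptor gene Grb10. They were found by their symbols in the GENCODE mouse M21 annotation among the 18381 genes of the deposited count table, each symbol matched 1 gene identifier, and all 8 passed the filter on low counts that left 14504 genes for testing. The teeth were first lower molars of wild-type C57BL/6JOlaHsd mouse embryos at embryonic day 14, kept in hanging drops for 6 h. From each of 5 embryos (numbered 1, 2, 3, 4 and 6), the tooth of one side received recombinant mouse IGF1 protein at 750 ng/ml and the tooth of the other side received the vehicle alone, PBS with bovine serum albumin, with right and left sides balanced. The comparison is therefore of 5 IGF1 teeth with 5 control teeth, paired within embryos, at a single dose and a single time in whole cultured teeth. Library totals ranged from 2845773 to 8403151 counts in control teeth and from 3456634 to 8763113 in IGF1 teeth, and embryo 1 gave the smallest library of both groups.

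IGF1 and IGF2 bind the IGF1 receptor, a tyrosine kinase that, with the closely related insulin receptor, phosphorylates the insulin receptor substrates IRS1 and IRS2. The phosphorylated substrates recruit phosphoinositide 3-kinase (PI3K), which activates Akt, and Akt in turn keeps FoxO transcription factors out of the nucleus. The IGF2 receptor has no kinase and carries IGF2 and mannose 6-phosphate tagged enzymes to lysosomes, while GRB10 binds activated receptors and dampens their signal. The added IGF1 was protein, so counts of Igf1 are of the tooth's own transcript.

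Transcripts of 4 members, Irs2, Igf1r, Irs1 and Insr, fell in the IGF1 teeth, and no member rose past the threshold (adjusted p under 0.05, edgeR's quasi-likelihood test with embryo as a block and Benjamini-Hochberg adjustment over all 14504 genes). These are 2 receptors and 2 substrates. The fitted fall was 48.7% for Irs2, 37.6% for Igf1r, 29.3% for Irs1 and 26.7% for Insr. Over all genes tested, 4.76% were called lower, 6.72% higher and 11.5% in either direction, and the median log2 fold change was -0.0038 against -0.47 over the 8 members. In each of the 4 genes all IGF1 teeth lay below all control teeth, a pattern that 3.03% of the genes tested had, and in no member did all IGF1 teeth lie above all control teeth, as they did in 4.21%. In RNA from whole teeth, fewer cells of a type and less RNA per cell cannot be told apart. Levels are given as CPM, a gene's share of its library's counts scaled to a fixed total after TMM normalisation, which corrects for differences in library composition.

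**Figure D1:**
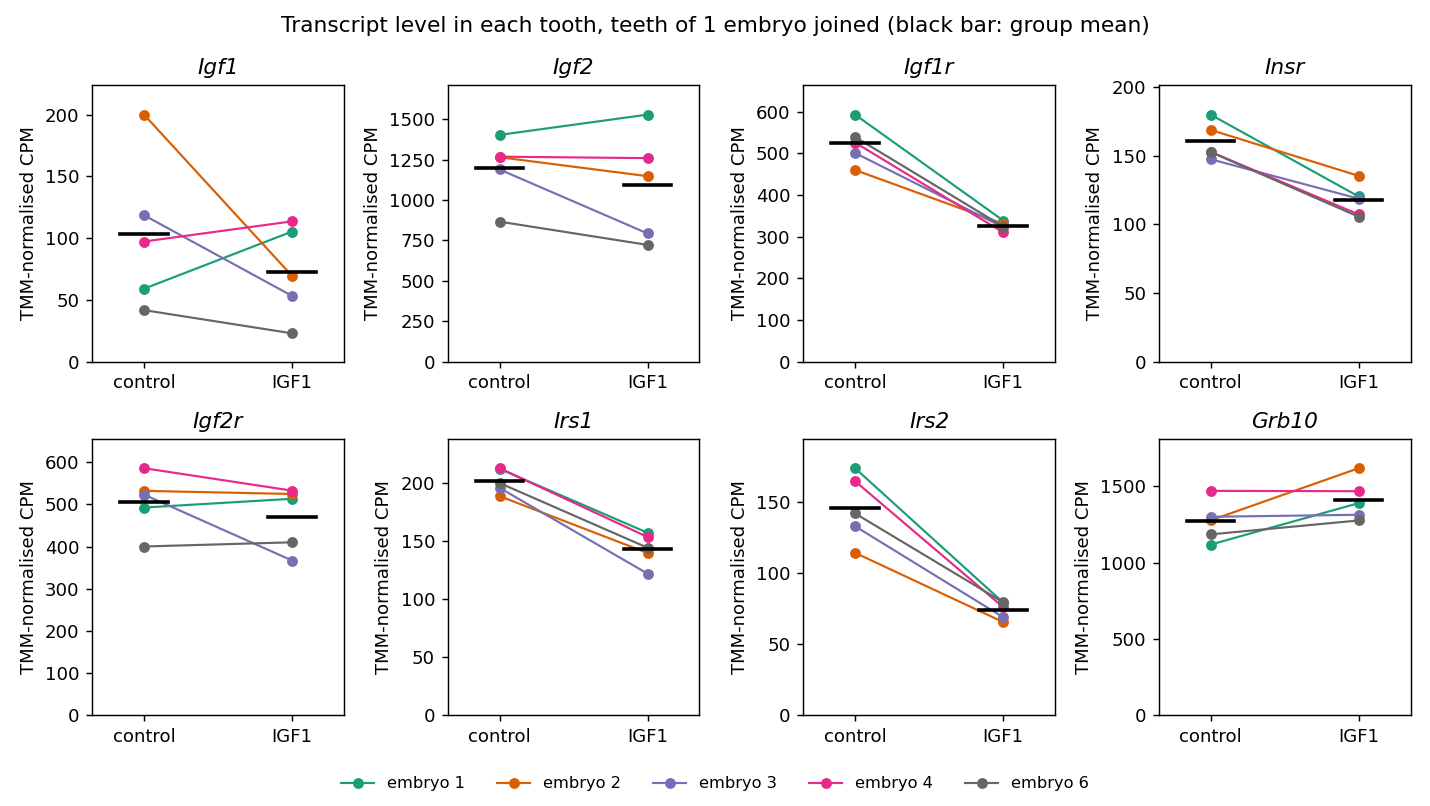
Level of each member (vertical axis, CPM, starting at 0) in the control and the IGF1 tooth of each embryo, with the teeth of an embryo joined by a line and black bars at group means. Lines fall in 5 of 5 embryos for Igf1r, Insr, Irs1 and Irs2, whereas lines of Igf1, Igf2, Igf2r and Grb10 run both up and down and their groups overlap.

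Promoter sequences are shown for the substrate genes and Igf1r, the 3 members with the largest falls past the threshold, because Irs1 and Irs2 share a pair of short motifs there. The sequences are the 250 bases before the start of each gene in RefSeq on GRCm38.p6, read 5′ to 3′ on the gene's strand, from chr8:11008930-11009179 for Irs2 (minus strand), chr1:82291440-82291689 for Irs1 (minus strand) and chr7:67952007-67952256 for Igf1r (plus strand). The RefSeq starts of these genes lie upstream of the GENCODE starts given with each gene. Capitals mark matches on either strand to GTAAACA (the FoxO or DAF-16 binding element), CAAAACA (the core of the insulin response element, TGTTTTG on the other strand), ACGTG (the core of the hypoxia response element) and CACGTG (the E-box, which contains ACGTG on both strands).
Irs2: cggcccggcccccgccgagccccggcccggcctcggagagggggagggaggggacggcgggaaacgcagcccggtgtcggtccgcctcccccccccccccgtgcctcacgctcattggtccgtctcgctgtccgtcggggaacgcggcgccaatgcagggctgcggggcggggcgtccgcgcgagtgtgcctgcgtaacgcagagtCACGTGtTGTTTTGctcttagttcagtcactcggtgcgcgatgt
Irs1: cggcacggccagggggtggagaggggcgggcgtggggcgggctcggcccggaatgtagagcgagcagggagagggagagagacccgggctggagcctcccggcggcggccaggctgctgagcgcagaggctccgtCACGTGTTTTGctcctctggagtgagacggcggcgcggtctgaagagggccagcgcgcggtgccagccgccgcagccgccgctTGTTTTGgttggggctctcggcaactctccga
Igf1r: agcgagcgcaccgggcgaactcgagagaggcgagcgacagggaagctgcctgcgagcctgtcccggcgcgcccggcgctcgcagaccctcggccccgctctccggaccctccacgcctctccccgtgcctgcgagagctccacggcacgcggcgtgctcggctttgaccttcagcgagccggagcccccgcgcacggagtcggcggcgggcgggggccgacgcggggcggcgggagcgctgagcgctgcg

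In Irs2 the E-box began 44 bases before the start and TGTTTTG began 37 bases before it, so that a single base separates them. In Irs1 the E-box began at 115 bases and TGTTTTG at 111 bases, where they overlap, and a further TGTTTTG lay at 32 bases. The Igf1r window held none of the 4 motifs. Of 32851 RefSeq promoter windows of 300 bases (250 before to 50 after a start), 7.15% held CACGTG, 6.28% held CAAAACA, 3.65% held GTAAACA and 19.6% held ACGTG. RefSeq windows were matched for 7 of the 8 members (11 windows), and Insr was not among them. Of the rest, Igf2r held CACGTG at 48 and at 7 bases before the start, 1 of the 4 Igf2 windows held ACGTG, and the windows of Igf1 and Grb10 held none of the 4.

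Both the E-box and the CAAAACA element lay in 134 of the windows (0.408%) at any distance. They began within 20 bases of each other in 19 of the windows (0.0578%), a distance chosen after the sequences of Irs1 and Irs2 were seen. These 19 windows belong to 16 genes, of which 8 were tested. Irs1 and Irs2, from which the pair and the distance were taken, have first bases 4 and 7 bases apart. Besides them, Klf11 (5 bases apart) fell (log2 fold change -0.60, adjusted p 0.00954), as did Fam214a (16 bases apart; -0.30, adjusted p 0.0476). Over all genes tested 4.76% were called lower, and no test of these few genes as a group was made. Irs4, a further insulin receptor substrate, held TGTTTTG with its first base 7 bases after that of its E-box, the spacing of Irs2, and had a log2 fold change of -0.95 that did not pass the threshold (adjusted p 0.0545). Pyroxd1 (-0.29, 5 bases apart), Zfp791 (-0.02, 16 bases apart) and Pcbp1 (0.07, 5 bases apart) did not pass it either. A match of letters is a description of the sequence, and binding was not measured here.

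Igf1 is annotated on chromosome 10 (GRCm38, chr10:87858265-87937042, plus strand) and encodes the secreted ligand that was also added as protein. Its level in the control teeth of embryos 1, 2, 3, 4 and 6 was 59.1, 200.01, 118.6, 97.3 and 41.8 CPM. In the IGF1 teeth it was 105.4, 69.4, 53.3, 113.6 and 23.0 CPM. Levels spread almost 5-fold within each group (highest over lowest 4.78 in control and 4.94 in IGF1 teeth), the groups overlapped, and Igf1 was lower with IGF1 in embryos 2, 3 and 6 and higher in embryos 1 and 4. The mean was 103 ± 62.0 CPM in control and 72.9 ± 37.4 CPM in IGF1 teeth (SD, n = 5). The fitted log2 fold change of -0.53 ± 0.281 (SE) did not pass the threshold (adjusted p 0.261), and its error was the largest of the 8 members.

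Teeth also differed in markers of bone and cartilage, tissue that adjoins the molar in the jaw. The summed level of the bone and cartilage list was 243, 827, 323, 334 and 112 CPM in the control teeth of embryos 1, 2, 3, 4 and 6, and so was highest in embryo 2 and lowest in embryo 6, as Igf1 was. In the IGF1 teeth embryo 2 again had the highest marker sum (1121 CPM) and embryo 6 the lowest (93.9 CPM), whereas Igf1 in embryo 2 was in the middle of its group. Bone and cartilage were not alone in this. Macrophage markers summed to 83.8, 102, 71.6, 87.9 and 64.7 CPM in control teeth, also highest in embryo 2 and lowest in embryo 6. In IGF1 teeth the macrophage sum was 85.2, 67.5, 62.3, 71.0 and 56.2 CPM in embryo order. It was again lowest in embryo 6, as Igf1 was, and highest in embryo 1, where Igf1 was highest in embryo 4. The part of either group of cells in the Igf1 level was not tested.

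Igf2 (chr7:142650766-142666816, minus strand), the imprinted fetal growth factor expressed from the paternal allele, had the highest level per length of the 8 members. Control teeth had 1402.3, 1264.5, 1188.8, 1267.9 and 866.3 CPM and IGF1 teeth 1528.0, 1147.2, 793.1, 1258.8 and 722.4 CPM, in embryo order. Both teeth of embryo 6 were low and both teeth of embryo 1 high, and the groups overlapped. Igf2 was lower with IGF1 in 4 of 5 embryos, with log2 changes from -0.58 in embryo 3 to -0.01 in embryo 4 among them, and the fitted log2 fold change was -0.17 ± 0.0962 (adjusted p 0.282). The gene Gm49394 shares 3596 exonic bases with Igf2 on the same strand, but it received at most 10 counts in any tooth, at most 0.122% of the counts of both genes.

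Igf1r (chr7:67952827-68233668, plus strand), the receptor through which IGF1 mainly signals, fell in every embryo. Its levels in control teeth were 593, 460, 501, 526 and 539 CPM, and in IGF1 teeth 339, 331, 323, 310 and 324 CPM. The highest IGF1 tooth lay well under the lowest control tooth, and the IGF1 teeth lay close together, with a coefficient of variation of 3.23% against 9.36% in control teeth. The mean was 524 ± 49.0 CPM in control and 325 ± 10.5 CPM in IGF1 teeth (SD, n = 5), and the log2 fold change was -0.68 ± 0.0691 (SE, adjusted p 0.000181). Changes within embryos ran from -0.81 in embryo 1 to -0.48 in embryo 2. By its p-value Igf1r ranked 72 among the 14504 genes tested and 19 among those that were lower.

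Insr (chr8:3122061-3279617, minus strand), the insulin receptor, which can pair with IGF1R in hybrid receptors, fell as well. Control teeth had 180, 169, 148, 153 and 153 CPM and IGF1 teeth 120, 135, 119, 107 and 106 CPM. The tooth of embryo 2 was the highest of the IGF1 group and still below the lowest control tooth, that of embryo 3. The mean went from 160 ± 13.6 to 117 ± 11.99 CPM (SD, n = 5), a log2 fold change of -0.45 ± 0.0698 (SE, adjusted p 0.00248) with changes from -0.58 to -0.31 in single embryos.

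Igf2r (chr17:12682406-12769664, minus strand), the imprinted receptor that clears IGF2 and is expressed from the maternal allele, did not pass the threshold. Control teeth had 493, 532, 523, 586 and 400 CPM and IGF1 teeth 513, 525, 367, 533 and 410 CPM. The groups overlapped, and the log2 change was -0.51 in embryo 3 and lay between -0.14 and 0.06 in the other embryos. The fitted log2 fold change was -0.12 ± 0.0869 (adjusted p 0.440), with 3 embryos lower and 2 higher.

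Irs1 (chr1:82233101-82291416, minus strand), a docking protein that links the activated receptors to PI3K, had 212, 188, 196, 212 and 200 CPM in control teeth and 157, 139.5, 122, 153 and 144 CPM in IGF1 teeth. The control teeth lay within a narrow range (coefficient of variation 5.19%) and all 5 IGF1 teeth lay under it. The mean fell from 202 ± 10.5 to 143 ± 13.8 CPM (SD, n = 5), a log2 fold change of -0.50 ± 0.0662 (SE, adjusted p 0.000922). The largest change was in embryo 3 (-0.68), and the other 4 embryos lay between -0.47 and -0.43. The gene Gm9747 shares 2822 exonic bases with Irs1 on the opposite strand and received at most 2 counts in a tooth.

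Irs2 (chr8:10984681-11008458, minus strand), the second widely expressed substrate, showed the largest fall of the 8 members. Control teeth had 173, 114, 133, 164 and 142 CPM and IGF1 teeth 79.2, 65.5, 68.9, 75.9 and 79.4 CPM. The control teeth varied more than the IGF1 teeth (coefficient of variation 16.5% against 8.52%), and the highest IGF1 tooth stayed below the lowest control tooth. The mean went from 145 ± 24.0 to 73.8 ± 6.29 CPM (SD, n = 5), and the log2 fold change was -0.96 ± 0.0759 (SE, adjusted p 3.18e-05). Irs2 ranked 32 by p-value among all genes tested and 3 among the lower ones, while 130 genes, Irs2 included, had a log2 fold change as low as that of Irs2.

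Grb10 (chr11:11930508-12038683, minus strand), an imprinted adaptor that inhibits IGF1 and insulin receptors, had levels of 1117.5, 1276, 1300, 1470 and 1185 CPM in control teeth and 1389, 1618, 1313, 1467 and 1276 CPM in IGF1 teeth. The groups overlapped. Grb10 was higher with IGF1 in 4 of 5 embryos, by 0.31 in log2 in embryo 1 and 0.34 in embryo 2, and almost level in embryos 3 (0.01) and 4 (-0.0023). The fitted log2 fold change of 0.15 ± 0.0769 did not pass the threshold (adjusted p 0.232).

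**Figure D2:**
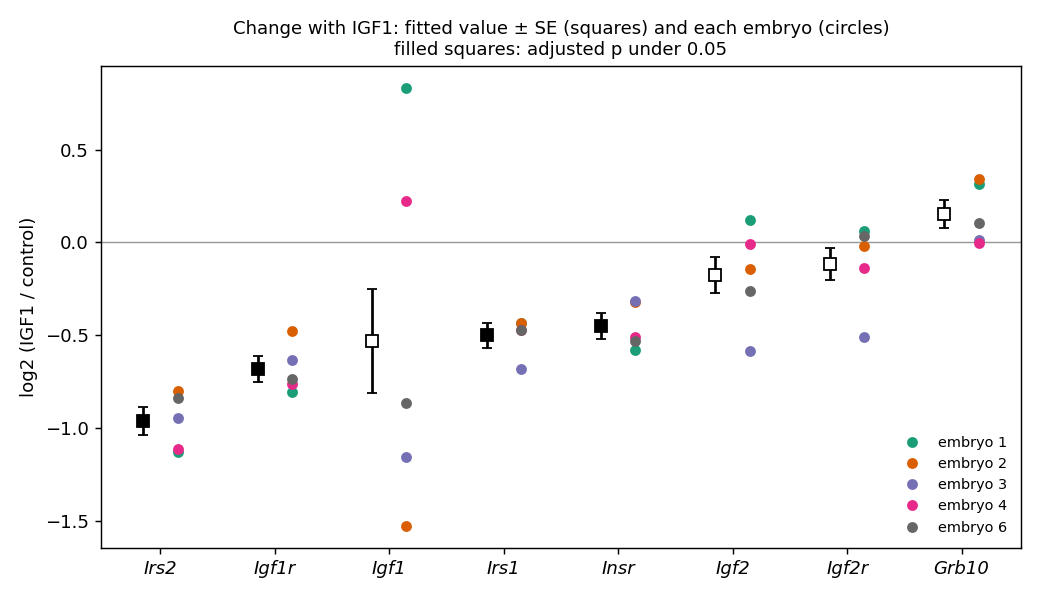
Log2 change with IGF1 for each member, with the fitted value and its standard error as squares (filled where the adjusted p is under 0.05) and the change in each embryo as circles. The 4 filled squares, Irs2, Igf1r, Irs1 and Insr, lie from -0.96 to -0.45, and the circles of Igf1 spread from -1.53 to 0.83.

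Per length, the order of the members in control teeth was Igf2, Grb10, Igf2r, Igf1r, Irs2, Irs1, Insr and Igf1. Igf2 had 209 ± 35.1 CPM per kb of annotated exon and Grb10 140 ± 14.7, higher than 99.1% and 98.6% of the genes tested. The gap between them depended on the length used. With the longest transcript as length, control teeth had 253.7 CPM per kb for Igf2 and 250.84 for Grb10. Igf2r had 54.5 ± 7.35 and Igf1r 31.2 ± 2.92 CPM per kb. Irs2 (23.0 ± 3.79) and Irs1 (22.1 ± 1.14) were nearly equal, and Insr (11.7 ± 0.987) and Igf1 (10.4 ± 6.26) were the lowest (SD, n = 5). The teeth of neighbouring genes in this order overlapped for Igf2 and Grb10, Igf1r and Irs2, Irs2 and Irs1, and Insr and Igf1.

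In IGF1 teeth the order differed in one place: Irs1 (15.7 ± 1.51 CPM per kb) stood above Irs2 (11.7 ± 0.994), and their teeth no longer overlapped. Igf1r, at 19.4 ± 0.626 CPM per kb, stood above 82.9% of the genes tested against 91.8% in control teeth. For Irs2 this share was 68.1% against 87.0%, the largest difference among the members. Igf2r kept the third place (50.5 ± 8.14 CPM per kb), and overlaps between neighbours remained only for Igf2 with Grb10 and for Insr with Igf1.

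**Figure D3:**
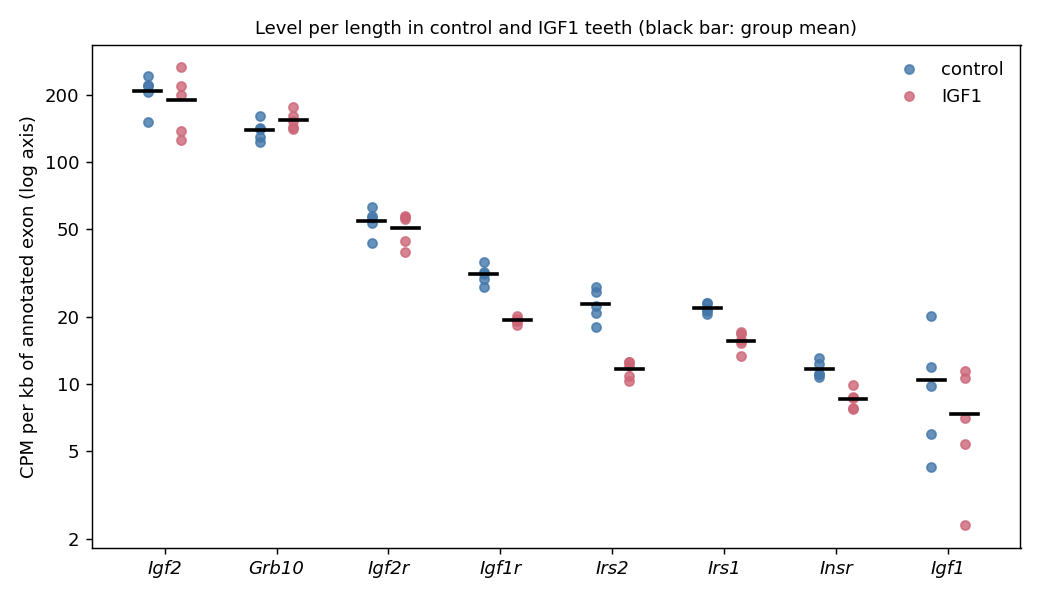
Level of each member per length (CPM per kb of annotated exon, log axis) in control and IGF1 teeth, with points for teeth and black bars for group means. Igf2 and Grb10 are the highest in both groups, and Irs2, level with Irs1 in control teeth at 23.0, falls below it to 11.7 in IGF1 teeth.

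Ratios of members within a tooth do not depend on how libraries are scaled. The ratio of Igf1r to Insr per length was 2.68 on average in control teeth and 2.28 in IGF1 teeth, a mean log2 change of -0.23 with an SD of 0.0611, lower in 5 of 5 embryos. Irs2 to Irs1 went from 1.04 to 0.748, a mean log2 change of -0.47 with an SD of 0.191, also lower in 5 of 5. An exact permutation test by sign flips over the embryos, two-sided, gave both ratios the smallest p that 5 embryos allow, which was 0.125 after adjustment over the 4 ratios computed. Neither therefore could pass 0.05. The ratios of Igf2 to Igf1 (mean log2 change 0.32, SD 0.814) and of Igf2r to Igf2 (0.06, SD 0.166) were each lower in 2 of 5 embryos, with an exact permutation p of 0.5. With single embryos omitted the first lay between 0.057 (embryo 2 omitted) and 0.58 (embryo 1 omitted), and the second between 0.00026 (embryo 6 omitted) and 0.11 (embryo 4 omitted).

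**Figure D4:**
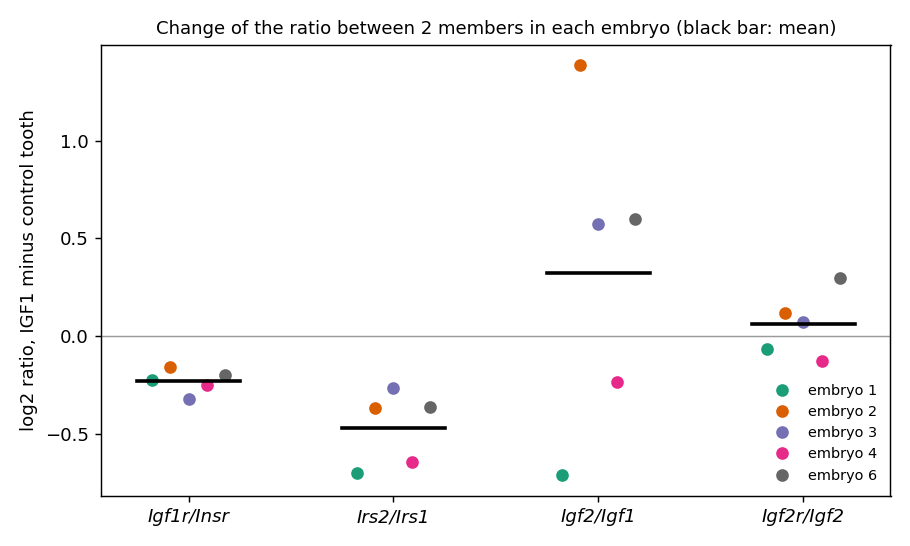
Change of the log2 ratio between 2 members, IGF1 minus control tooth, for each embryo (points) with the mean as a black bar. The ratios of Igf1r to Insr and of Irs2 to Irs1 lie below 0 in all 5 embryos, and the other ratios lie on both sides of 0.

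Patterns over the 10 teeth were compared after each embryo's mean was removed, which leaves 5 within-embryo differences, so high correlations are common and are given as descriptions. Among the members, Pearson's r was 0.994 for Igf1r and Irs2, 0.993 for Igf1r and Insr, 0.971 for Irs1 and Irs2, and 0.802 for Igf1 and Igf2. Grb10 had negative values with the 4 members that fell, from -0.71 with Insr to -0.64 with Irs1. Of the 10838 genes compared, the most like Irs2 were Bsdc1, Acox3 and Cyb561a3 (r = 0.996 for each), and the most like Igf1r were Calcoco1 (0.999), Cyb561a3 (0.997) and Bach2 (0.995). Insr was most like Baz2b (0.996), Trib2 (0.995) and Brd9 (0.994), and Irs1 was most like Pink1 (0.998), Prickle2 (0.996) and Zfp637 (0.994). Of these genes Calcoco1 had the largest fall (log2 fold change -1.12, adjusted p 2.38e-05), while Cyb561a3, Brd9 and Zfp637 did not pass the threshold (adjusted p 0.312, 0.0998 and 0.130).

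For the members that did not pass the threshold, the genes with the most similar pattern had no call either. They were Pcdhga2 (0.992), Efemp1 (0.991) and Shisa2 (0.988) for Igf1, Htatsf1 (0.9897), Cd40 (0.982) and Mettl7a1 (0.976) for Igf2, Plxna4 (0.981), Rps6kc1 (0.980) and Kat5 (0.980) for Igf2r, and Gphn (0.993), Ap2m1 (0.988) and Dvl1 (0.988) for Grb10. The values of every gene come from the same 10 libraries and share their scaling.

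Of other insulin-family ligands, receptors and substrates, 3 of 12 listed genes were tested and 0 passed the threshold. Irs4 was the nearest, at 3.41 ± 1.42 CPM in control and 1.78 ± 0.604 CPM in IGF1 teeth, lower in 5 of 5 embryos (log2 fold change -0.95 ± 0.283, adjusted p 0.0545). Among 22 adaptors that bind the activated receptors or their substrates, 1 fell and 1 rose (9.09%, near the 11.5% of all genes). Gab1, a docking protein that recruits PI3K and the phosphatase SHP2, fell from 202 to 158 CPM (log2 fold change -0.36, adjusted p 0.00446), and Dok5, a docking protein of low level here, rose from 4.91 to 10.2 CPM (1.04, adjusted p 0.0112). Of 16 tested phosphatases, SOCS proteins and ubiquitin ligases that act on the receptors or substrates, 0 passed, the feedback inhibitor Socs3 being just outside (log2 fold change -0.41, adjusted p 0.0506).

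Outside the cell, 6 of 11 tested genes for IGF binding proteins and the proteins that control their cleavage passed the threshold (54.5%, against 11.5% of all genes), 4 higher and 2 lower, with a median log2 fold change of 0.02. Igfbp5, a binding protein that holds IGFs in the matrix, rose from 928 ± 211 to 1801 ± 189 CPM (SD, n = 5; log2 fold change 0.98, adjusted p 0.000645). Stanniocalcins, which inhibit the pappalysin proteases, rose, with a log2 fold change of 3.58 for Stc2 and 1.29 for Stc1. Stc2 went from a low level of 1.81 ± 0.654 CPM to 23.8 ± 22.5 CPM (SD, n = 5). Its IGF1 teeth were uneven, from 6.05 to 59.6 CPM. Stc1 went from 13.6 ± 7.19 to 33.2 ± 14.1 CPM (SD, n = 5). Pappa2, a pappalysin that frees IGFs by cutting Igfbp5 and Igfbp3, fell from 248.8 to 160.8 CPM (-0.63, adjusted p 0.000195). The 2 others past the threshold were Igfbp2 (0.66) and Pappa (-0.97).

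Downstream of the substrates, 3 of 26 PI3K, Akt and mTOR genes rose and 3 fell (23.1% called, against 11.5% of all genes), with a median log2 fold change of -0.01. Pik3r3, a regulatory subunit of PI3K, rose from 39.9 to 73.5 CPM (log2 fold change 0.86, adjusted p 0.000494), and Pik3r1, another regulatory subunit gene, rose as well (0.27). The catalytic subunit genes Pik3cd and Pik3ca had log2 fold changes of -0.61 (adjusted p 0.0132) and -0.27 (adjusted p 0.0209), and Rictor, a subunit of an mTOR complex, of -0.32 (adjusted p 0.0140). Of 16 tested FoxO factors and targets, 6 fell and 1 rose (43.8% called), with a median of -0.29. Txnip, an inhibitor of thioredoxin and of glucose uptake, fell from 183 ± 36.1 to 81.4 ± 8.41 CPM (-1.15, adjusted p 4.02e-05), the mitochondrial kinase gene Pink1 fell by 0.89 (adjusted p 0.000147), the ubiquitin ligase gene Fbxo32 by 1.32 (adjusted p 0.000154) and Pdk4, a kinase that restrains pyruvate dehydrogenase, by 1.37 (adjusted p 0.00889). Foxo6, at a low level (1.66 to 3.84 CPM), was the gene of this list that rose (1.24, adjusted p 0.0250). Of the other factor genes, Foxo4 fell in 5 of 5 embryos (-0.36, adjusted p 0.0138), and Foxo1 (0.11, adjusted p 0.481) and Foxo3 (0.08, adjusted p 0.732) did not pass the threshold. Bcl6, a transcriptional repressor, fell as well (-0.67, adjusted p 0.0396).

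**Figure D5:**
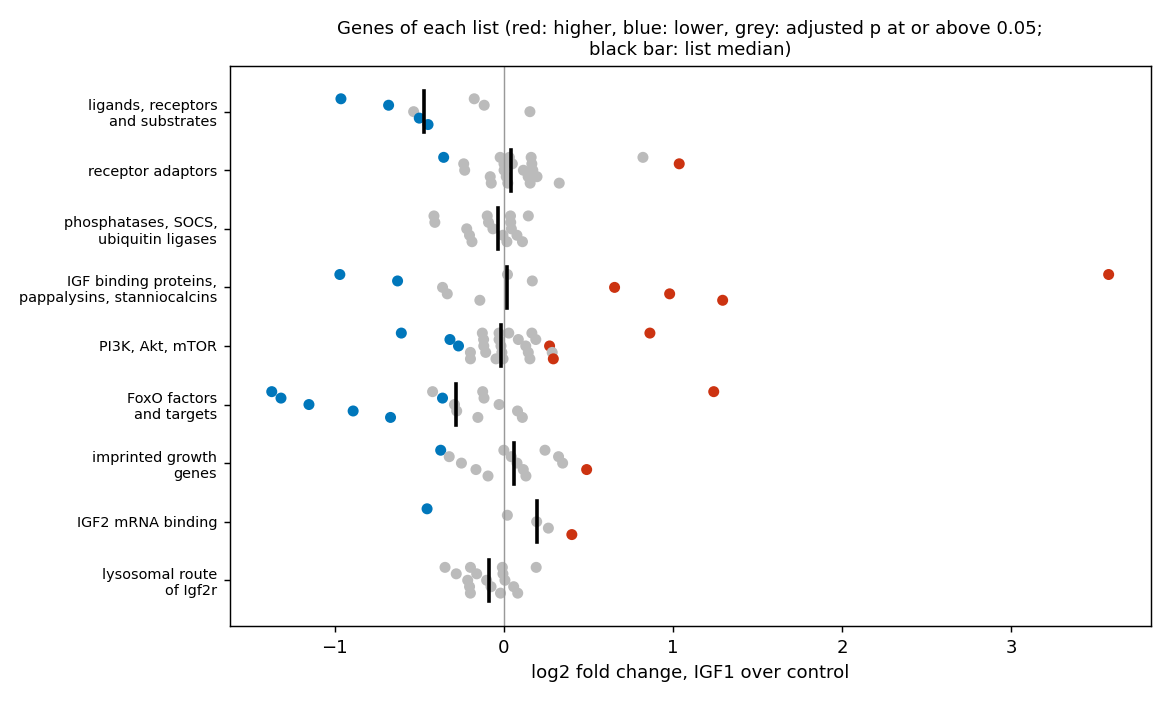
Log2 fold change of each tested gene in 9 lists around the IGF pathway (the insulin-family list, with 3 genes tested and a median of -0.14, is not drawn), in red where it passed the threshold as higher, in blue as lower and in grey otherwise, with the list median as a black bar. The medians of the members (-0.47) and of the FoxO list (-0.29) lie to the left of 0, and the other medians drawn lie between -0.09 and 0.19.

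Among genes linked to Igf2 and Igf2r, 2 of 14 tested imprinted growth genes (14.3%, near the 11.5% of all genes) passed the threshold, Cdkn1c, a cell cycle inhibitor (log2 fold change 0.49, adjusted p 0.00345), and Zim1 (-0.37, adjusted p 0.0257). Of 5 tested genes that bind or regulate Igf2 mRNA, Igf2bp1 rose (0.40, adjusted p 0.00243) and Hmga2 fell (-0.45, adjusted p 0.00654). Of 16 lysosomal enzymes and sorting partners of the Igf2r route, 0 passed, with a median of -0.09.

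Cell type markers and response genes were measured in the same teeth. All 17 tested genes of the hypoxia response list were higher in the IGF1 teeth (median log2 fold change 1.69), and their summed level was 952 to 1511 CPM in control and 2006 to 6775 CPM in IGF1 teeth. In IGF1 teeth the sum was 2530, 6775, 4723, 2501 and 2006 CPM in embryo order, and in control teeth 1511, 1242, 961, 1282 and 952 CPM. Of 20 mesenchymal markers 3 fell (15%, near the 11.5% of all genes), Pdgfra (-0.53), Vim (-0.42) and Pdgfrb (-0.32), and the summed level was 8306 to 10318 CPM in control and 7560 to 10052 CPM in IGF1 teeth. Of 19 tested epithelial markers 1 rose, Krt5 (0.43), and 2 fell, Shh (-1.31) among them (15.8% called), with sums of 3744 to 5410 and 4057 to 5508 CPM, so both tissues of the molar were present in every tooth.

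The sum of 10 endothelial markers was 426 to 485 CPM in control and 340 to 459 CPM in IGF1 teeth, with Cdh5 (-0.38) and Esam (-0.42) lower, and that of 8 listed erythroid genes 719 to 1318 and 516 to 1059 CPM, with 4 of 6 tested lower. Both sums were lower in 5 of 5 embryos. The share of genes called was 20% for the endothelial, 66.7% for the erythroid and 12.5% for the macrophage list, against 11.5% of all genes. Macrophage markers summed to 64.7 to 102 and 56.2 to 85.2 CPM, with Csf1r (-0.44) lower among 8 tested, glial and nerve markers to 82.9 to 109 and 78.9 to 102 CPM, with Tubb3 (0.70) higher among 3 tested, and muscle markers to 10.3 to 25.1 and 8.03 to 50.1 CPM, with 0 of 3 past the threshold. Defining markers of glia (Sox10) and muscle (Myod1 and Myog) stayed at or below 3.46 CPM in every tooth. The part of hypoxia genes or of cell makeup in the fall of Irs2, Igf1r, Irs1 and Insr was not tested.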

How the data were processed

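RNA-seq was made from 10 single molars with the Ovation Mouse RNAseq System, as the labels give it. The authors deposited estimated counts per gene, without normalization. The submitters' processing notes name FastQC 0.11.8, Trimmomatic 0.39, Salmon 0.99.0, DESeq2 and GRCm38, and whether counting used strand is not given in the sources used here. The deposited values were rounded to whole numbers, filtered with filterByExpr, scaled by TMM and tested with edgeR 4.0.16 (R 4.3.3, quasi-likelihood test, embryo as a block, Benjamini-Hochberg adjustment over 14504 genes, threshold 0.05). CPM are TMM-normalised. Positions and exon lengths came from GENCODE M21, in which 94 of the 18381 identifiers were not found, and promoters from RefSeq. The procedure was tested on simulated data in which the planted changes had a single fixed size, larger than the fitted change of any member. Recovery of changes of the members' own sizes was not examined.

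Per the labels, the teeth of a pair are those of 1 embryo. Pearson's r between the paired teeth, each taken as its difference from its group's mean, was 0.334, 0.225, -0.0358, 0.186 and 0.328 in embryo order, with a median of -0.0493 between embryos. Samples of a group differed by more than counting noise (chi-square per degree of freedom 4.52 to 18.2). Whether the embryos shared a litter is not given in the sources used here. The p-values of edgeR rest on the spread between these 5 pairs, moderated by the spread seen over all genes tested. The SE of a fitted change was derived from the same test, so it is not the spread of the 5 pairs alone.

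The members and gene lists were chosen with earlier results of these data known. All 8 members are named, of each pathway list at most the 4 genes with the lowest p among those past the threshold, list genes not past it only with their values, and for likeness the 3 genes with the highest Pearson r among genes with a mean of at least 10 CPM, on log2 CPM with 0.5 added. Igfbp2, Pappa, Pik3r1, Foxo4, Foxo6, Bcl6, the cell type markers and the genes that share a promoter motif pair are named outside this rule, after their values were seen. Some list genes past the threshold are not reported by name here. Alternatives were other size factors, DESeq2 1.42.0, limma-voom (limma 3.58.1), other filters, no block, thinning both teeth of an embryo to a common total, and leaving out each embryo. Python 3.11.15 was used for sequences and figures.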

Additional observations from a re-analysis of the deposited data

Results flagged for a closer look

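For each of the 8 members in both groups, the gap between the highest or lowest tooth and its neighbour was divided by the range of the group. None of these 16 sets of 5 teeth stood apart at the 95% critical value of Dixon's ratio, where chance alone would give about 0.8.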

How the results depend on the processing

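Irs2, Igf1r, Irs1 and Insr were called lower, and no member was called higher, under each of the 14 alternatives run. Leaving out each embryo in turn gave log2 fold changes from -1.005 to -0.924 for Irs2, -0.73 to -0.65 for Igf1r, -0.52 to -0.46 for Irs1 and -0.49 to -0.42 for Insr, with a highest adjusted p of 0.0161, for Insr. Of the members not past the threshold, Igf1 ranged from -0.83 (embryo 1 omitted) to -0.25 (embryo 2 omitted; adjusted p 0.0569 to 0.615), and omitting embryo 3 took Igf2 from -0.17 to -0.077 and Igf2r from -0.12 to -0.021. The count of all genes called was less stable. It was 887 without the replicate block in place of 1666, and with single embryos omitted it lay between 986 (embryo 4 omitted) and 1602 (embryo 3 omitted), with 994 where embryo 6 was omitted. A fit on fewer teeth has less data behind it, and beyond this the cause was not tested. The block and the pairing changed no call of a member. Other settings gave 1364 (DESeq2's Wald test) to 1832 (at least 10 counts in every tooth), and upper-quartile scaling raised the share of called genes that were lower from 41.48% to 49%. With the longest transcript as length, control levels of Igf2, Igf1r, Insr and Grb10 were 253.7, 45.9, 17.1 and 250.84 CPM per kb, and the order of the 8 members stayed as it was. Igf1 had the fewest counts of the 8 members in a tooth (161), and with both teeth of each embryo thinned to 1 total its log2 fold change was -0.54 against -0.53.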

Other observations

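Genes near the members in the genome were examined for calls of their own. Within 500 kb of a member, 42 other genes were tested, of which 4 were higher in IGF1 teeth and 0 lower by edgeR's quasi-likelihood test (9.52%, against 11.5% of all genes). The 3 near Igf2r were Acat2, which makes acetoacetyl-CoA for sterol synthesis (log2 fold change 1.69), its neighbour Acat3 (1.58) and Sod2, the mitochondrial superoxide dismutase (0.29), and the one near Grb10 was Fignl1 (0.43). Acat2 and Acat3 are close copies, and how reads were divided between them is uncertain. These genes were chosen after their values were seen. The neighbours of Igf1, Igf2, Igf1r, Insr, Irs1 and Irs2 had 0 genes past the threshold.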
